A study of Mus musculus with 24 samples.

Results

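The tumor suppressor gene Trp53 and 8 of its best known target genes, Mdm2, Cdkn1a, Ccng1, Gadd45a, Bax, Pmaip1, Phlda3 and Trp53inp1, were followed through 24 samples of mouse mammary cancer in which pleiotrophin (PTN) was blocked or depleted. The genes were taken by symbol, and all 9 were among the 12091 genes listed. The transcription factor p53 is kept low in unstressed cells by the ubiquitin ligase Mdm2, which p53 itself induces. After DNA damage or other stress p53 accumulates, mostly through protein stability, and raises the RNA of genes that arrest the cell cycle, repair DNA or start apoptosis. In mammary cancer it is among the genes most often mutated, and the RNA of its targets is read as a trace of its activity, whereas its own RNA need not follow it.

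PTN is a secreted growth factor, and it was inhibited in 4 experiments of 3 control and 3 inhibited samples. In the tumor experiments, mice received the monoclonal anti-PTN antibody 3B10 at 15 mg/kg or the control mouse IgG C44. The 4T1 tumors grew from a mammary carcinoma line placed in the mammary fat pad of BALB/c mice, and 4T1 cells are known to lack functional p53 protein. The MMTV-PyMT tumors arose in FVB/N mice whose mammary epithelium expresses the polyoma middle T antigen from a viral promoter. In the cell experiments, E0771, a poorly metastatic C57BL/6 mammary adenocarcinoma line, and E0771-LG, derived from a lung metastasis of E0771, carried 1 shRNA against Ptn (shPTN) or a control vector against EGFP (shCtrl, plko in the labels). Infected cells were selected with puromycin as separate populations, so population differences and the shRNA effect cannot be told apart. The authors describe the samples as biological replicates. The labels do not say how those of a cell line were kept apart, and p-values measure only the spread between these samples.

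Levels are log2 CPM in the 18 MMTV-PyMT, E0771 and E0771-LG samples, where 100% of the values came out as whole reads (within 0.02 of a read) at a depth of 15.63 to 21.12 M reads on genes. The 6 4T1 samples were deposited on a different log2 scale without such steps, and its normalization and depth are unknown, so these levels were not set beside those of the others. A log2 fold change is the inhibited minus the control mean, and a gene is called at an adjusted p under 0.05 by limma over all genes tested. All 9 genes passed the filter on low values in each experiment.

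Shown are the promoters of the target genes of cell cycle arrest and apoptosis that held a match to the p53 consensus decamer, the short palindrome that p53 dimers bind. RefSeq windows of 300 bases on GRCm38.p6, from 250 bases before to 50 bases after the start, were found for 7 of the 9 genes, and Trp53inp1 and Pmaip1 had no entry. Searched on both strands, the decamer was in at least 1 window of 6 of these 7 genes, beside 9.55% of all 27025 genes, and in 6 of their 8 windows, beside 8.36% of all 32851 windows. The windows below are Cdkn1a at chr17:29090729-29091028 (plus strand), Ccng1 at chr11:40755237-40755536 (minus), Bax at chr7:45466849-45467148 (minus) and Gadd45a at chr6:67037358-67037657 (minus), read 5′ to 3′ with the decamers in capitals.
Cdkn1a: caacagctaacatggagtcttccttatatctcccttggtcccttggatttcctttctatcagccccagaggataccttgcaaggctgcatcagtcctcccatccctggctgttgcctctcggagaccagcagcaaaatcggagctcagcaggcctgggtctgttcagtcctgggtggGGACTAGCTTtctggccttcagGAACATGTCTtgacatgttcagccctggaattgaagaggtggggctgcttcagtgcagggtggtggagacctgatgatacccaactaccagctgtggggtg
Ccng1: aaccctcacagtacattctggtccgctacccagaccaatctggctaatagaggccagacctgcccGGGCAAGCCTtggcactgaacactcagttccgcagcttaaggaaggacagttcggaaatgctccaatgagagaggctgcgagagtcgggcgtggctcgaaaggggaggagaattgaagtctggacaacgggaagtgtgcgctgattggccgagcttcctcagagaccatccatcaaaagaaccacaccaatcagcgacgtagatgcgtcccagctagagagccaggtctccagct
Bax: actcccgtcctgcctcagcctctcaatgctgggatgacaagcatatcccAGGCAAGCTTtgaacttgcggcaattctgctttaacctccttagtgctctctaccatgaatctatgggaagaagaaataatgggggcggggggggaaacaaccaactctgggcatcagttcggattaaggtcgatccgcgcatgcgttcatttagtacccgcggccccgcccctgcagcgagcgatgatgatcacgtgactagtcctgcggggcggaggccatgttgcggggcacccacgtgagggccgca
Gadd45a: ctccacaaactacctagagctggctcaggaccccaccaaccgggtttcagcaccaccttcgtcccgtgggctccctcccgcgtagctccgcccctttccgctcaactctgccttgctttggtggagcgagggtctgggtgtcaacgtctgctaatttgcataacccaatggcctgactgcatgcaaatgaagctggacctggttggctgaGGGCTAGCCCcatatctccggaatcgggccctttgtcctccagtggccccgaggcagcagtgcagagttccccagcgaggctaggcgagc
The Cdkn1a window held 2 decamers, where 0.359% of all windows held at least 2, and the others shown held 1. The second Cdkn1a window and that of Phlda3 held none, while those of Trp53 and Mdm2 held 1 each. A match describes these letters only, and binding was not measured.

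Trp53 (ENSMUSG00000059552, plus strand of chromosome 11, 69580359 to 69591873) was the steadiest of the genes in the tumors. In MMTV-PyMT tumors its level was 7.15, 7.12 and 6.70 log2 CPM with C44 and 6.95, 6.89 and 6.88 with 3B10. In E0771shCtrl cells it was 7.13, 7.00 and 7.12, and in E0771-LGshCtrl cells 8.03, 7.72 and 7.92. All E0771-LGshCtrl samples lay above all E0771shCtrl and C44 samples, while the latter groups overlapped. Mdm2 (ENSMUSG00000020184, minus strand of chromosome 10, 117688875 to 117710758), whose product marks p53 for degradation, followed the order E0771-LGshCtrl (6.77 ± 0.12 log2 CPM, SD, n = 3), E0771shCtrl (6.40 ± 0.12) and C44 MMTV-PyMT tumors (6.08 ± 0.08). None of these neighbours overlapped.

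Among the genes of cell cycle arrest, Cdkn1a (ENSMUSG00000023067, plus strand of chromosome 17, 29090976 to 29100727) encodes p21, the inhibitor of cyclin-dependent kinases. Its control levels were 6.25 ± 1.29 log2 CPM (SD, n = 3) in MMTV-PyMT tumors, 5.73 ± 0.65 in E0771-LG and 5.02 ± 0.68 in E0771 cells. Neighbours in this order overlapped. Ccng1 (ENSMUSG00000020326, minus strand of chromosome 11, 40748552 to 40755311) encodes cyclin G1, which acts with the phosphatase PP2A on Mdm2. It stood at 7.18 ± 0.24 in the MMTV-PyMT controls, 6.61 ± 0.06 in E0771-LG and 5.54 ± 0.11 in E0771 controls, with no overlap between neighbours. Gadd45a (ENSMUSG00000036390, minus strand of chromosome 6, 67035096 to 67037457), a stress sensor of growth arrest and DNA repair, stood at 4.79 ± 0.68 in the MMTV-PyMT controls, above E0771 (4.01 ± 0.10) without overlap. The Gadd45a samples of E0771 and E0771-LG (3.49 ± 0.57) overlapped.

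Among the genes of cell death and stress, Bax (ENSMUSG00000003873, minus strand of chromosome 7, 45461697 to 45466898) encodes the protein that opens the outer mitochondrial membrane. Its control level was 7.14 ± 0.09 log2 CPM (SD, n = 3) in E0771-LG, 6.74 ± 0.19 in E0771 and 5.90 ± 0.60 in MMTV-PyMT, and the last pair overlapped. Pmaip1 (ENSMUSG00000024521) encodes Noxa, a BH3-only protein, and was low in MMTV-PyMT controls at 1.65 ± 0.39, below E0771-LG (3.64 ± 0.52) and E0771 (4.27 ± 0.26), which overlapped each other. Phlda3 (ENSMUSG00000041801, plus strand of chromosome 1, 135766119 to 135769136), which keeps the kinase Akt from the membrane, lay between 4.99 and 5.31 in the means of these groups, all overlapping. Trp53inp1 (ENSMUSG00000028211, plus strand of chromosome 4, 11156431 to 11174379), a stress protein that aids p53 and autophagy, separated tumors from cells most. It stood at 6.86 ± 0.21 in MMTV-PyMT controls and at 1.67 ± 0.88 in E0771-LG and 1.60 ± 0.15 in E0771 controls, a 36.4-fold gap between tumors and E0771-LG. In the cell lines this gene rests on 34 to 124 reads per sample. Tumors hold several cell types, and in bulk RNA fewer cells of a type and less RNA per cell cannot be told apart.

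**Figure D1:**
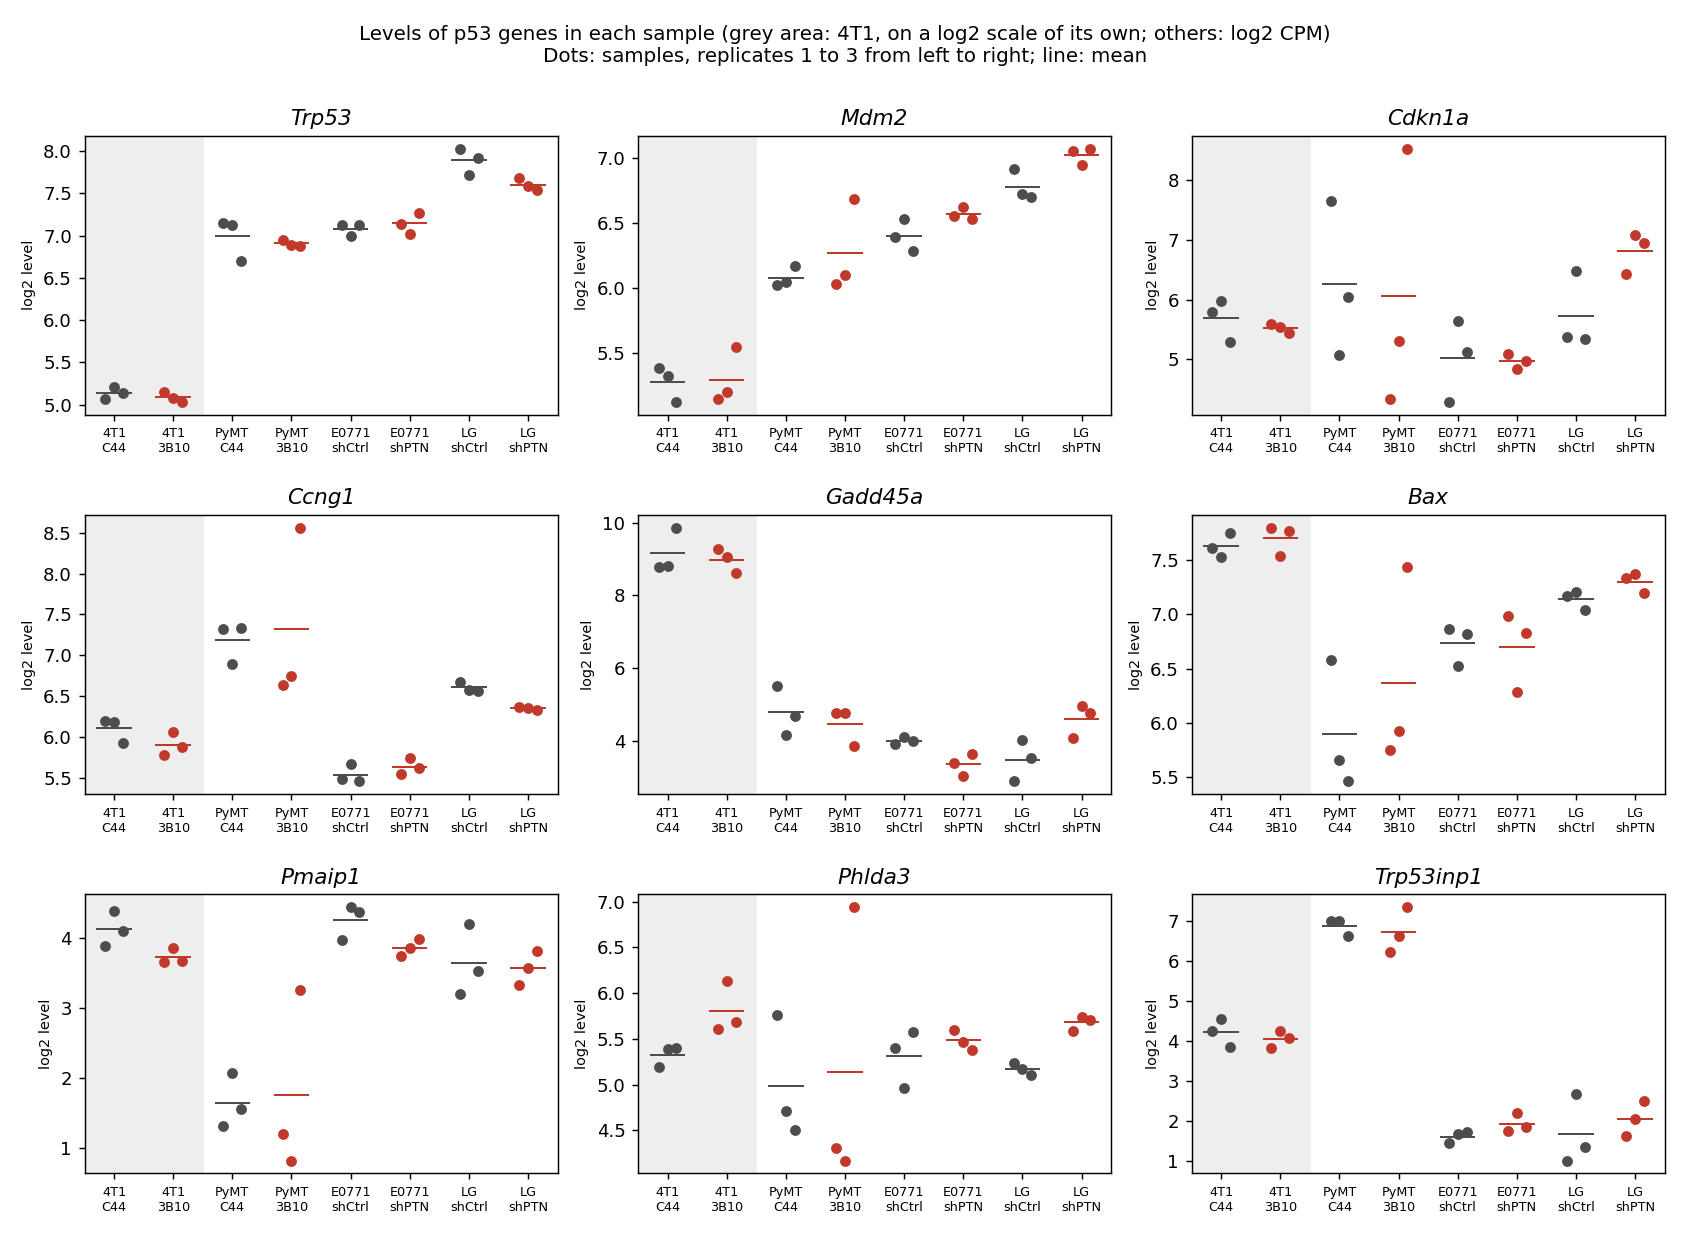
Each panel shows 1 gene, with the log2 level on the vertical axis, the 8 groups on the horizontal axis (4T1, shaded, on its own scale), dots for samples and lines for group means. Cdkn1a in MMTV-PyMT tumors runs from 4.34 to 8.52 log2 CPM, while Trp53 there stays between 6.70 and 7.15.

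Per kilobase of exon, which allows genes to be compared with each other, Bax was the highest of the 9 in E0771shCtrl (mean 6.08 log2 CPM per kb) and E0771-LGshCtrl cells (6.48), followed by Trp53 (5.07 and 5.87). In MMTV-PyMT controls Ccng1 (5.37) and Bax (5.24) led, and Pmaip1 was lowest (0.20). In both lines Trp53inp1 was lowest, at −1.09 in E0771 and −1.02 in E0771-LG.

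In MMTV-PyMT tumors several target genes, Cdkn1a first, differed widely between tumors of the same arm. Cdkn1a was at 7.64, 5.08 and 6.04 log2 CPM with C44 and at 4.34, 5.31 and 8.52 with 3B10, that is from 329 to 5972 reads. The highest tumor of each arm, replicate 1 of C44 and replicate 3 of 3B10, stood above the other 4, and the lowest and highest tumors were 18.2-fold apart. Phlda3 was at 5.76, 4.71 and 4.50 with C44 and at 4.31, 4.17 and 6.94 with 3B10. Bax was at 6.58, 5.66 and 5.46 with C44 and at 5.75, 5.92 and 7.44 with 3B10. For both genes the same tumors were the highest of their arm, and the arms overlapped.

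Replicate 3 of 3B10 also held the highest Ccng1, at 8.56 against 6.64 to 7.33 log2 CPM in the other tumors, and the highest Pmaip1, at 3.26 against 0.82 to 2.08. Mdm2 was highest there too, at 6.68 against 6.02 to 6.17, as was Trp53inp1, at 7.34 against 6.22 to 6.99. In all, 7 of the 9 genes peaked in this tumor, beside 25.2% of all genes. Gadd45a was the exception among the targets. Its level in this tumor, 3.86, was the lowest of the 6, and it peaked at 5.52 in replicate 1 of C44. Trp53 itself was at 6.88 in replicate 3 of 3B10, within the range of the others.

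**Figure D2:**
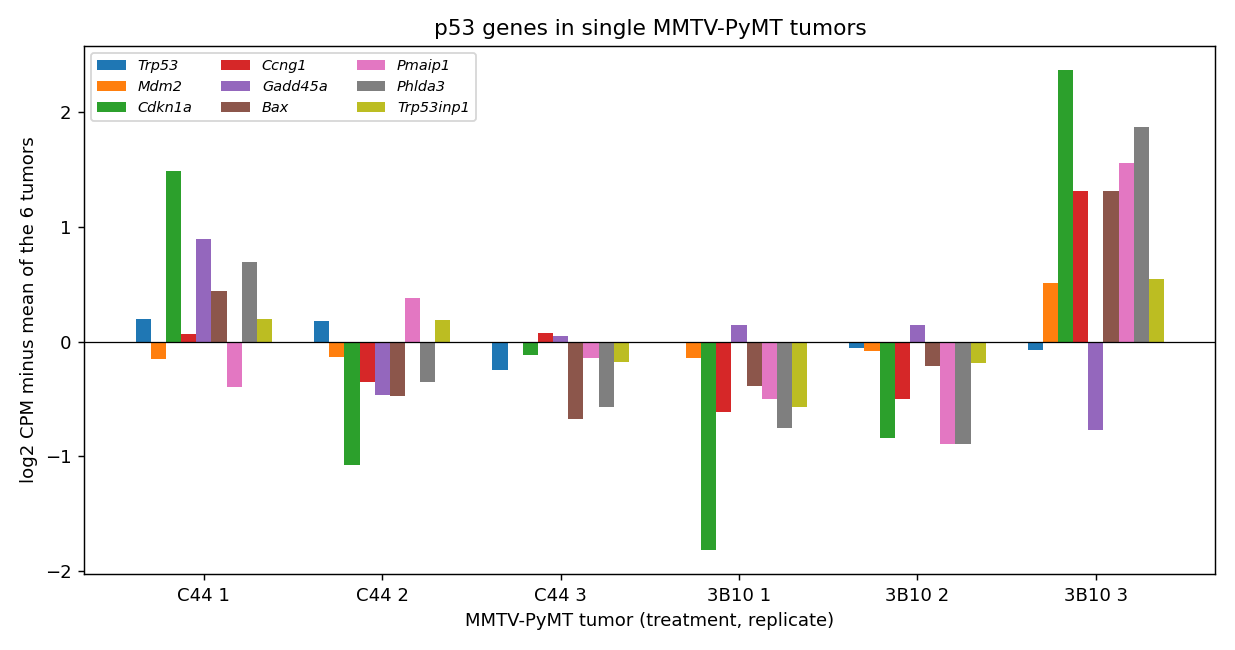
Bars show, for each of the 6 MMTV-PyMT tumors on the horizontal axis, the log2 CPM of each gene minus its mean over the 6 tumors. Cdkn1a, Phlda3, Pmaip1, Ccng1 and Bax are all above 0 in replicate 3 of 3B10, where Gadd45a is below 0, and the bars of Trp53 are short in every tumor.

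The spread within arms was compared with that of all 11361 genes tested in this model, whose median within-group SD was 0.24 on the log2 scale. Cdkn1a had a within-group SD of 1.80, which 0.22% of genes exceeded. For Phlda3 it was 1.20, exceeded by 1.11% of genes, and for Pmaip1 0.97, exceeded by 2.48%. Pmaip1 rests on only 32 to 155 reads per tumor here. Bax and Ccng1 had SDs of 0.78, exceeded by 4.62% and 4.64% of genes. That of Gadd45a was 0.61, exceeded by 8.66% of genes, and that of Trp53inp1 was 0.43, exceeded by 18.9%. Mdm2 (0.26, exceeded by 44.5%) and Trp53 (0.18, exceeded by 68.7%) lay near or below the median of all genes.

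With 3B10, 0 of the 9 genes were called in MMTV-PyMT tumors by limma, beside 0% of all genes tested. At an unadjusted p under 0.05 there were 0 of the 9 and 307 of all genes, and voom weights on the recovered reads also called 0 of the 9. The groups did not overlap for 0 of the 9 genes, beside 8.34% of all genes. The log2 fold change of Cdkn1a was −0.19 (SE 1.09, 95% interval −2.76 to 2.37, adjusted p = 1), and that of Bax was 0.47 (SE 0.49, adjusted p = 1). The interval is wide enough to hold a change of several fold in either direction. Without replicate 3 of 3B10 the log2 fold change of Cdkn1a was −1.43, and without replicate 1 of C44 it was 0.50. It also turned positive without replicate 1 (0.66) or replicate 2 of 3B10 (0.18).

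The other p53 targets were counted in the same tumors, from lists of genes of cell cycle and DNA repair, apoptosis, and metabolism and stress. Of the 52 tested, 22 (42.3%) had their highest level in replicate 3 of 3B10, beside 25.2% of all genes. In replicate 1 of C44, where Cdkn1a was second highest, 2 (3.85%) did, beside 14.7% of all genes. The median deviation from the mean of the 6 tumors in replicate 3 of 3B10 was 0.23 on the log2 scale over these targets, 1.31 over the 9 genes and 0.02 over all genes. Replicate 1 of C44 had 19.18 M and replicate 3 of 3B10 had 16.26 M reads on genes, the range over the 6 tumors being 16.26 to 19.25 M.

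**Figure D3:**
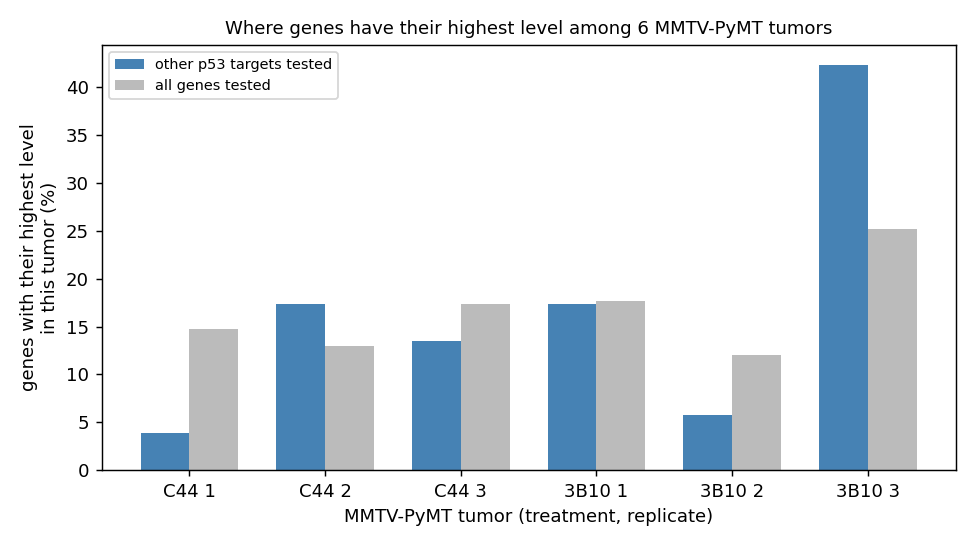
Blue bars give the percentage of the 52 other p53 targets, and grey bars the percentage of all 11361 genes tested, that have their highest level in the MMTV-PyMT tumor on the horizontal axis. Replicate 3 of 3B10 holds 42.3% of the targets and 25.2% of all genes.

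Cell type markers differed between these tumors too. The summed level of the 5 epithelial markers (all measured, led by Krt8 in both) was 5166 CPM in replicate 1 of C44 and 3650 in replicate 3 of 3B10, in a range of 3648 to 5166 over the 6 tumors. The 8 of 9 leukocyte markers in the table, led by Lyz2, summed to 370 and 271 in a range of 209 to 491. The 5 fibroblast markers, led by Col1a1, summed to 1632 and 1183 (range 830 to 2455), and the 4 endothelial markers, led by Pecam1, to 106 and 84.6 (range 76.0 to 124). The 3 of 4 skeletal muscle markers in the table, led by Myh4, summed to 25.2 and 6.34 (range 5.60 to 25.2), and Fabp4, the 1 of 4 adipocyte markers in the table, stood at 15.1 and 5.66 (range 4.90 to 29.3). Replicate 1 of C44 thus had the highest epithelial and muscle sums of the 6 tumors, and replicate 3 of 3B10 lay near the low end of both. No marker was at 0 in these tumors, and the part of this makeup in the values of Cdkn1a and the other genes was not tested.

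In 4T1 tumors Phlda3 and Pmaip1 stood apart between the antibodies. Phlda3 was at 5.19, 5.39 and 5.40 with C44 and at 5.61, 6.13 and 5.68 with 3B10, in the log2 units of the 4T1 samples. Pmaip1 was at 3.89, 4.40 and 4.11 with C44 and at 3.66, 3.86 and 3.68 with 3B10. Every 3B10 tumor lay above every C44 tumor for Phlda3 and below for Pmaip1. These were 2 of the 9 genes without overlap, beside 11.3% of all 11467 genes tested. The log2 fold change was 0.48 for Phlda3 (SE 0.17, adjusted p = 0.725) and −0.40 for Pmaip1 (SE 0.17, adjusted p = 0.791), and neither was called. The other 7 genes had log2 fold changes between −0.20 (Ccng1) and 0.08 (Bax), and Trp53 lay between 5.03 and 5.21 in all 6 tumors. By limma 0 of the 9 genes were called, beside 0% of all genes, and at an unadjusted p under 0.05 there were 1 of the 9 and 719 of all genes.

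Cell type markers differed between the 4T1 arms. The leukocyte markers summed to 9257, 6339 and 8542 with C44 and to 3272, 6229 and 3890 with 3B10, all led by Lyz2. The epithelial markers, led by Krt18, summed to 3192, 3463 and 3451 with C44 and to 4889, 4460 and 5100 with 3B10. The skeletal muscle markers, led by Tnnt3 in 5 tumors and Acta1 in replicate 2 of 3B10, summed to 9.99, 10.8 and 23.9 with C44, where Myh4 was at 0 in 2 tumors, and to 32.2, 137 and 232 with 3B10. For each of these lists the arms did not overlap, whereas they overlapped for fibroblast (767 to 3115, led by Col1a1), endothelial (84.5 to 256, led by Cdh5 or Cldn5) and adipocyte (9.58 to 34.9, Fabp4) markers. The part of this makeup in the values of Phlda3 and Pmaip1 was not tested.

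In the cell lines the shRNA target was checked first. Ptn was at 2.90, 2.18 and 2.28 log2 CPM in E0771shCtrl and at −0.63, 0.25 and 0.53 in E0771shPTN, and at 3.65, 4.51 and 3.74 in E0771-LGshCtrl against 1.42, 0.98 and 1.38 in E0771-LGshPTN. It was lower with shPTN without overlap in both lines, with log2 fold changes of −2.40 (SE 0.37, adjusted p = 0.00159) and −2.71 (SE 0.28, adjusted p = 6.3e-05). Epithelial markers were low in both lines. In E0771 they summed to 99.3, 114 and 107 CPM with shCtrl and to 115, 98.9 and 108 with shPTN, where Krt14 was at 0 in each sample. In E0771-LG they summed to 158, 204 and 164 with shCtrl, where Cdh1 was at 0 in replicates 1 and 2, and to 424, 565 and 516 with shPTN, with Krt8 the most abundant throughout. Fibroblast markers in E0771 summed to 67.7, 91.8 and 79.5 with shCtrl, led by Pdgfra, and to 309, 263 and 308 with shPTN, led by Col3a1. In E0771-LG, led by Pdgfra, they summed to 75.8, 116 and 91.6 with shCtrl and to 51.5, 51.7 and 60.3 with shPTN. Leukocyte markers in E0771, led by Lyz2, summed to 10.7, 12.6 and 12.3 with shCtrl and to 44.4, 27.5 and 36.0 with shPTN, with Cd3e and Itgam at 0 in each of these samples. In E0771-LG they summed to 5.26, 9.34 and 9.46 with shCtrl, led by S100a8, and to 10.0, 17.9 and 15.6 with shPTN, led by Lyz2, with Adgre1 at 0 in each sample. Fabp4 in E0771-LG stood at 10.93, 18.32 and 12.05 with shCtrl and at 1.18, 3.93 and 3.04 with shPTN. The skeletal muscle markers, led by Acta1 with Myh4 at 0 throughout, were low, at 0.174, 0.343 and 0.181 against 0.621, 1.33 and 0.960 in E0771 and at 4.57, 3.01 and 2.26 against 0.947, 1.66 and 1.55 in E0771-LG. The part of these markers in the values of the p53 genes was not tested.

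In E0771 cells 1 of the 9 genes, Gadd45a, was called, beside 20.6% of all genes in either direction. It was at 3.92, 4.11 and 4.00 log2 CPM in E0771shCtrl and at 3.40, 3.03 and 3.64 in E0771shPTN, from 147 to 353 reads. Every shPTN sample lay below every control. Gadd45a fell by 0.65 on the log2 scale (SE 0.18, adjusted p = 0.0248), the 1 of 9 genes called lower, beside 11.7% of all 10394 genes. By limma 0 of the 9 were called higher, beside 8.89% of all genes. In either direction 2 of the 9 had an unadjusted p under 0.05, beside 3541 of all 10394 genes. These 2 were Gadd45a and Pmaip1, both lower. The call of Gadd45a was lost without replicate 2 (adjusted p = 0.0936) or replicate 3 of shCtrl (0.0815), and over 15 alternatives its adjusted p was between 0.0195 and 0.309. Without replicate 1 of shCtrl 2 of the 9 genes were called, the second being Pmaip1 (adjusted p = 0.0339, range over alternatives 0.0339 to 0.649).

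Cdkn1a in E0771 was at 4.29, 5.64 and 5.13 with shCtrl and at 5.09, 4.84 and 4.97 with shPTN. The shPTN samples all lay inside the range of the controls. The effect on it was −0.05 on the log2 scale (SE 0.29, adjusted p = 0.928), which turned to 0.01 after quantile normalization. The difference for Pmaip1 was −0.40 (SE 0.16, adjusted p = 0.0999) and for Trp53inp1 0.32 (SE 0.25, adjusted p = 0.41). Trp53 (0.06), Mdm2 (0.17), Ccng1 (0.10), Bax (−0.04) and Phlda3 (0.17) had log2 fold changes of at most 0.17, none of them called. Mdm2 and Trp53inp1 were higher with shPTN without overlap, and with Gadd45a these were 3 of 9 genes whose groups did not overlap, beside 39.4% of all genes.

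In E0771-LG cells 5 of the 9 genes were called, beside 46.4% of all genes in either direction, a share near that of the 9. Gadd45a was at 2.89, 4.03 and 3.53 log2 CPM with shCtrl and at 4.09, 4.97 and 4.78 with shPTN, from 128 to 564 reads. All shPTN samples lay above all controls, the opposite order to E0771, and Gadd45a rose by 1.13 on the log2 scale (SE 0.32, adjusted p = 0.0219). Cdkn1a was at 5.37, 6.48 and 5.35 with shCtrl and at 6.42, 7.08 and 6.94 with shPTN. Replicate 2 of shCtrl stood above the lowest shPTN sample, so the groups overlapped. The log2 fold change of Cdkn1a was 1.08 (SE 0.35, adjusted p = 0.0496), just past the threshold.

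Phlda3 varied little within either group of this line. It was at 5.24, 5.17 and 5.11 log2 CPM with shCtrl and at 5.59, 5.74 and 5.71 with shPTN. The groups were apart, and Phlda3 rose by 0.51 on the log2 scale (SE 0.11, adjusted p = 0.00341). These 3 of 9 genes were called higher, beside 24.3% of all 10405 genes.

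Trp53 and Ccng1 went the other way. Trp53 was at 8.03, 7.72 and 7.92 with shCtrl and at 7.68, 7.59 and 7.54 with shPTN. Ccng1 was at 6.68, 6.58 and 6.57 with shCtrl and at 6.37, 6.36 and 6.33 with shPTN. For both, every shPTN sample lay below every control. Trp53 fell by 0.28 on the log2 scale (SE 0.10, adjusted p = 0.0422) and Ccng1 fell by 0.26 (SE 0.09, adjusted p = 0.0412). They were 2 of 9 genes called lower, beside 22.1% of all genes. For Mdm2 the effect was 0.25 (SE 0.10, adjusted p = 0.0621), without overlap, and it was called without replicate 1 of shCtrl (adjusted p = 0.0113) and with quantile normalization (0.0181), in a range over alternatives of 0.0113 to 0.200. The groups did not overlap for 5 of the 9 genes, beside 57.1% of all genes. Bax (0.16), Trp53inp1 (0.37) and Pmaip1 (−0.07) overlapped between the groups and were not called.

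The called genes of E0771-LG differed in how often they passed. Phlda3 passed in 14 of 15 alternatives (adjusted p 0.00209 to 0.410) and Gadd45a in 12 (0.000213 to 0.0741), against 7 for Trp53 (0.0115 to 0.167) and 6 each for Cdkn1a (0.000117 to 0.249) and Ccng1 (0.0278 to 0.537). Gadd45a was not called without replicate 3 of shCtrl (adjusted p = 0.0665), replicate 2 (0.0741) or replicate 3 of shPTN (0.0707). Trp53 was not called without replicate 1 (0.0667) or 3 of shCtrl (0.115), nor without replicate 1 (0.0556), 2 (0.125) or 3 of shPTN (0.147). Cdkn1a lost its call without the same samples, with adjusted p of 0.174 and 0.142 for shCtrl and 0.0520, 0.0994 and 0.115 for shPTN. It was also lost with a pseudocount of 1 (0.0511), median-of-ratios scaling (0.0513), quantile normalization (0.0529) and all 24 samples in 1 fit (0.249). Trp53 was lost with no filter (0.0577), in the fit of all 24 samples (0.0513) and with quantile normalization (0.167), where its log2 fold change was −0.18. Ccng1 was lost with quantile normalization (0.132), with the replicate block (0.0562) and in the fit of all 24 samples (0.537). Phlda3 was lost in the fit of all 24 samples too (0.410). Ccng1 lost it without any 1 sample, with adjusted p of 0.0558, 0.0633 and 0.0867 for replicates 1, 2 and 3 of shCtrl and 0.0752, 0.103 and 0.124 for those of shPTN. The count of called genes was 3 without replicate 1 and 1 without replicate 3 of shCtrl, and 2, 1 and 1 without replicates 1, 2 and 3 of shPTN.

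**Figure D4:**
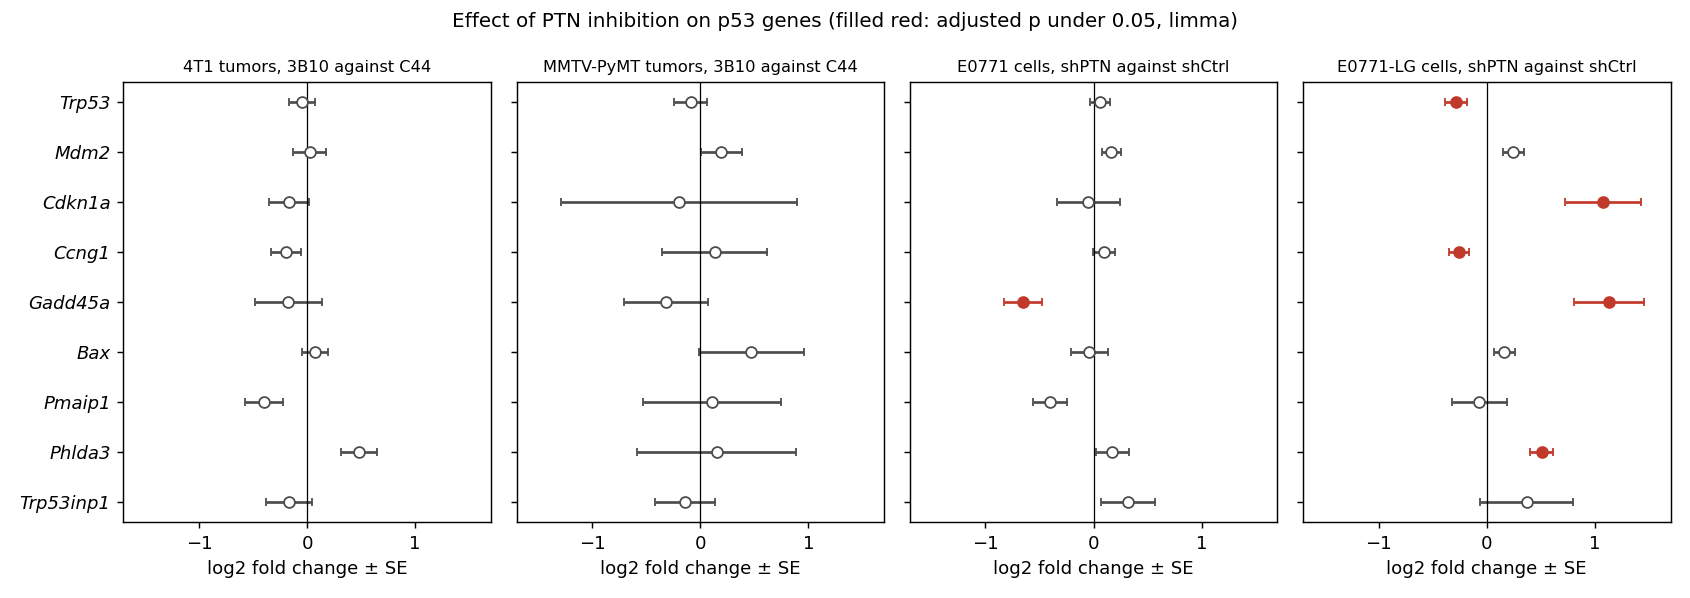
Points give the log2 fold change of each gene in the 4 experiments, with bars of 1 SE, and filled red points are called by limma. No gene is called in the tumors (0% of all genes), 1 is for E0771 (20.6% of all genes) and 5 are for E0771-LG cells (46.4%), and the bar of Cdkn1a in MMTV-PyMT tumors, with an SE of 1.09, is the widest.

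The exact two-sided permutation test on 3 against 3 samples cannot give less than 0.1, and those of the 9 genes without overlap in the 4T1, E0771 and E0771-LG experiments had that value.

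The difference between the lines was tested directly as an interaction. For Gadd45a the shPTN effect in E0771-LG minus that in E0771 was 1.78 on the log2 scale (SE 0.39, adjusted p = 0.00361), the 1 of 9 genes called in this direction, beside 18.3% of all 10600 genes. It passed in all 21 alternatives run, with adjusted p between 0.00042 and 0.0172. For Ccng1 the difference was −0.35 (SE 0.13, adjusted p = 0.0471), the 1 of 9 genes in the other direction, beside 15.7% of all genes. Ccng1 passed in 8 of 21 alternatives, with adjusted p between 0.0280 and 0.600. It was not called without replicate 1 (adjusted p = 0.0935) or 3 of E0771shCtrl (0.119), or without replicate 2 (0.104) or 3 of E0771shPTN (0.0789). Nor was it without replicate 1 (0.0727), 2 (0.0554) or 3 of E0771-LGshCtrl (0.0668), or replicate 1 (0.0625), 2 (0.0826) or 3 of E0771-LGshPTN (0.0919). Trp53 (−0.34, SE 0.14, adjusted p = 0.064) and Cdkn1a (1.13, SE 0.52, adjusted p = 0.115) were not called. Trp53 passed with median-of-ratios scaling (−0.39, adjusted p = 0.0456) and without replicate 2 of E0771shPTN (0.0427) or of E0771-LGshCtrl (0.0205), in a range of 0.0205 to 0.163 over alternatives. Cdkn1a passed without replicate 1 of E0771shCtrl (0.0284) or replicate 2 of E0771-LGshCtrl (0.0221), in a range of 0.0221 to 0.464. Phlda3 (0.33, SE 0.19, adjusted p = 0.185) passed without replicate 2 of E0771shCtrl (0.0238), in a range of 0.0238 to 0.768.

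**Figure D5:**
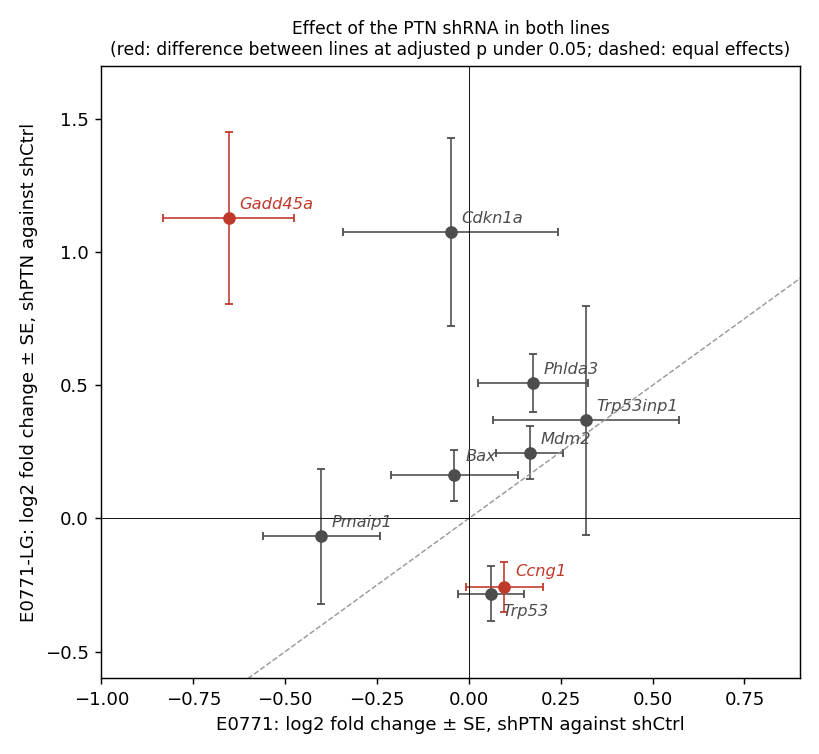
The log2 fold change of each gene with shPTN in E0771 cells is on the horizontal axis and that in E0771-LG cells on the vertical axis, with bars of 1 SE. Gadd45a, at −0.65 and 1.13, lies farthest from the dashed line of equal effects.

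Between the control cells, E0771-LG held more Trp53 and more of its targets Ccng1, Bax and Mdm2 than the parental line. The other p53 targets, given below by list, differed in both directions. Ccng1 was at 5.49, 5.67 and 5.46 log2 CPM in E0771shCtrl and at 6.68, 6.58 and 6.57 in E0771-LGshCtrl, a log2 difference of 1.07 (SE 0.10, adjusted p = 2.53e-05). Trp53 differed by 0.81 (SE 0.10, adjusted p = 0.000146). Bax differed by 0.40 (SE 0.11, adjusted p = 0.0125) and Mdm2 by 0.37 (SE 0.11, adjusted p = 0.013). Each of these 4 genes was higher in 3 of 3 E0771-LG samples than in every E0771 sample. Of all 10411 genes 2434 were higher without overlap in this way, and 4189 were lower. They were 4 of 9 genes called higher, beside 19.2% of all 10411 genes, and by limma 0 of 9 were called lower, beside 35.3%. With the replicate block Cdkn1a was also called higher, and Gadd45a and Pmaip1 were called lower. At an unadjusted p under 0.05 there were 5 of the 9 and 6275 of all 10411 genes. The other member was Pmaip1, which was lower.

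The median log2 difference over all genes in this comparison was −0.15, and it was 0.00 after median-of-ratios scaling, so changes are best read against it. The share of called genes that were higher in E0771-LG was 35.3% as deposited and 50.1% after that scaling. With it, Ccng1 differed by 1.22, Trp53 by 0.96, Bax by 0.55 and Mdm2 by 0.52. The difference of Phlda3, −0.14 as deposited, turned to 0.01, and it was not called in either. Mdm2 lost its call without replicate 3 of E0771shCtrl (adjusted p = 0.0703, range over alternatives 0.00243 to 0.0703) and Bax without replicate 2 (0.0501, range 0.00225 to 0.321). Ccng1 and Trp53 passed in all 15 alternatives run. Without replicate 2 of E0771-LGshCtrl, which was the highest of its group for Cdkn1a, Gadd45a, Trp53inp1 and Pmaip1, 6 genes were called, Gadd45a (adjusted p = 0.00828, range over alternatives 0.00828 to 0.651) and Pmaip1 (0.00275, range 0.00275 to 0.306) as lower. Pmaip1 was also called without replicate 1 of E0771shCtrl (0.0463).

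The regulators of p53 were taken from a list of 35 genes, of which 32 were in the table. None was called in either tumor model by limma, and 2 of 32 in 4T1 and 0 of 32 in MMTV-PyMT had an unadjusted p under 0.05. Over all genes these were 719 of 11467 and 307 of 11361. In E0771 cells 2 of 30 tested were higher and 3 lower with shPTN, beside 8.89% and 11.7% of all genes, with a median log2 fold change of −0.03, as over all genes. Mdm4, the Mdm2 relative that masks the p53 activation domain, fell by 0.75 (SE 0.14, adjusted p = 0.00446). Mdm4 also fell in E0771-LG cells, by 0.67 (SE 0.12, adjusted p = 0.00113), and the interaction was not called (0.08, adjusted p = 0.756). Its E0771-LG and interaction values were chosen after they were seen. The kinase gene Chek2 fell by 0.38 (adjusted p = 0.0391), while Hipk2, a kinase that phosphorylates p53, rose by 0.62 (adjusted p = 0.011).

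In E0771-LG cells 5 of 29 regulators tested were higher and 8 lower, beside 24.3% and 22.1% of all genes, with a median log2 fold change of −0.06 beside 0.05 over all genes. The ribosomal protein genes Rpl5 (0.72, SE 0.08, adjusted p = 9.51e-05) and Rpl11 (0.83, SE 0.09, adjusted p = 8.07e-05), whose products bind and restrain Mdm2, rose. The DNA damage kinase gene Atm fell by 1.45 (SE 0.15, adjusted p = 6.11e-05) and Hipk2 fell by 1.94 (SE 0.19, adjusted p = 5.12e-05). The effect on Hipk2 thus had opposite signs in the lines, and the interaction was −2.55 (SE 0.24, adjusted p = 9.83e-06). For Atm it was −1.30 and for Rpl5 0.82, and 12 of 30 regulators were called there, 6 in each direction, beside 18.3% and 15.7% of all genes. Between control lines 4 of 29 were higher and 10 lower in E0771-LG, beside 19.2% and 35.3% of all genes, with a median of −0.15, as over all genes. Among the lower were Chek2 (−1.08) and Usp7 (−0.89), the deubiquitinase of Mdm2 and p53.

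The other p53 targets moved in both directions. Of 17 genes of cell cycle and DNA repair, 14 were tested in E0771 cells, where 1 was higher and 5 lower with shPTN, beside 8.89% and 11.7% of all genes, and the median log2 fold change was −0.29 beside −0.03 over all genes. Plk3 (−1.02, SE 0.19, adjusted p = 0.00476) and Rrm2b (−0.86, SE 0.20, adjusted p = 0.0118), a ribonucleotide reductase subunit for DNA repair, were lower. In E0771-LG cells 2 of 14 were higher and 3 lower, beside 24.3% and 22.1% of all genes (median 0.08 beside 0.05). There Pcna (0.50, adjusted p = 0.00123) and Ercc5 (0.88, adjusted p = 0.00478), both of DNA repair, rose, and Zmat3 fell by 0.50 (adjusted p = 0.0123). Ccnd2 rose by 0.64 in E0771 and fell by 0.64 in E0771-LG cells, an interaction of −1.28 (SE 0.17, adjusted p = 9.35e-05). Between control lines 2 of 14 were higher and 2 lower in E0771-LG, beside 19.2% and 35.3% of all genes (median −0.20 beside −0.15). Plk2 (0.75) and Ccnd2 (0.67) were the higher genes, and Rb1 (−1.12) and Ercc5 (−0.81) the lower.

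Of 17 targets in apoptosis, 15 were in the table. In E0771 cells 1 of 12 tested was higher and 3 lower, beside 8.89% and 11.7% of all genes (median −0.13 beside −0.03). The death receptor gene Fas fell by 1.63 (SE 0.35, adjusted p = 0.00859), and the BH3-only genes Bid (−0.63, adjusted p = 0.0333) and Bbc3, which encodes Puma (−0.59, adjusted p = 0.0359), were lower. In E0771-LG cells 2 of 13 were higher and 3 lower, beside 24.3% and 22.1% (median −0.20 beside 0.05). Siva1 rose by 0.83 (SE 0.14, adjusted p = 0.000752) and the death receptor gene Tnfrsf10b by 0.61 (SE 0.14, adjusted p = 0.00558), while Tnfaip8 fell by 0.86 (adjusted p = 0.00141). The interaction was 1.35 for Fas (adjusted p = 0.0346) and 0.77 for Tnfrsf10b (adjusted p = 0.00757). Between control lines 2 of 13 were higher and 3 lower in E0771-LG, beside 19.2% and 35.3% of all genes (median −0.07 beside −0.15).

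Of 25 targets in metabolism and stress, 22 were in the table. With shPTN 4 of 20 tested were higher and 3 lower in E0771 cells, beside 8.89% and 11.7% of all genes (median −0.21 beside −0.03). In E0771-LG cells 3 of 19 were higher and 4 lower, beside 24.3% and 22.1% (median 0.12 beside 0.05). Thbs1, which encodes thrombospondin 1, rose by 2.70 in E0771 (SE 0.34, adjusted p = 0.00178) and fell by 2.07 in E0771-LG (SE 0.24, adjusted p = 0.000117). Cgref1 rose by 1.07 in E0771-LG (adjusted p = 0.000736). Between control lines 5 of 19 were higher and 7 lower in E0771-LG, beside 19.2% and 35.3% (median 0.14 beside −0.15), with Epha2 (1.11) higher and the sestrin gene Sesn1 (−0.96) lower. In the tumors 0 genes of these 3 lists were called. At an unadjusted p under 0.05 there were 2 of 17, 1 of 15 and 2 of 21 in 4T1 tumors. In MMTV-PyMT tumors there were 0 of 17, 0 of 15 and 2 of 20. Over all genes that threshold was met by 719 of 11467 in 4T1 and 307 of 11361 in MMTV-PyMT tumors.

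Genes that p53 represses through p21 and the DREAM complex, a list of 15 genes of mitosis and replication, all passed the filter. In the tumors 0 were called, with a median log2 fold change of 0.54 in 4T1 beside 0.01 over all genes and of 0.35 in MMTV-PyMT beside 0.05, and 8 and 5 of them had an unadjusted p under 0.05, beside 719 of 11467 and 307 of 11361 genes. Their median deviation from the mean of the 6 4T1 tumors was −0.16, −0.09 and −0.54 with C44 and −0.25, 0.54 and 0.59 with 3B10. In MMTV-PyMT tumors it was −0.37, −0.03 and −0.14 with C44 and 0.20, 0.17 and 0.12 with 3B10, without overlap. Over all genes it was −0.047, 0.005 and −0.032 with C44 and 0.046, 0.008 and 0.020 with 3B10, also without overlap. In 4T1 tumors, replicates 2 and 3 of 3B10 were high, and replicate 1 lay below replicates 1 and 2 of C44. The epithelial sums were higher and the leukocyte sums lower with 3B10 in these 4T1 tumors, and their part in this was not tested. In E0771 cells limma called 5 of 15 higher and 0 lower with shPTN, beside 8.89% and 11.7% of all genes (median 0.29 beside −0.03). Of the 15, 8 had an unadjusted p under 0.05, beside 3541 of all 10394 genes. Among those called higher were Aurka (0.43, SE 0.08, adjusted p = 0.0044) and Ccnb1 (0.36, SE 0.08, adjusted p = 0.0107). In E0771-LG cells, where Cdkn1a was higher, 4 of 15 were higher and 1 lower, beside 24.3% and 22.1% (median 0.10 beside 0.05). Cdc20 (0.59, SE 0.08, adjusted p = 0.000379) and Cdk1 (0.49, SE 0.09, adjusted p = 0.00134) rose there, and the mitotic factor gene Foxm1 fell by 0.62 (SE 0.11, adjusted p = 0.00127).

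The genes whose log2 level over the 12 cell line samples was most like that of Trp53 among 9153 genes were Gsto1 (Pearson r = 0.976) and Prpsap1 (0.974). For Mdm2 they were Cct5 (0.968) and Scmh1 (0.959), and for Cdkn1a Arid5a (0.969) and St14 (0.954). These samples share their line and vector in groups of 3, so the values describe the pattern over the groups.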

How the data were processed

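RNA of 24 samples was sequenced as paired ends on Illumina instruments, and the authors used HISAT2 for alignment to mm10, featureCounts for counting and edgeR for testing. Log2 values of 12091 genes were deposited, and the step that made them is not given in the sources used here. The values of 18 samples stepped as whole reads do in log2 CPM if 0.5 is added to each count, and the 4T1 values did not. Values were used as deposited. Each experiment was fitted with limma 3.58.1 in R 4.3.3 (lmFit, eBayes with trend and robust, statmod 1.5.0) keeping genes that, on the linear scale, exceeded a sample's minimum by 1 or more in 3 or more samples, with Benjamini-Hochberg adjustment over all genes tested and a threshold of 0.05. The members and lists were chosen with earlier results of these data known. All members were named, and from each list at most 4 genes with the smallest adjusted p per comparison among those past the threshold, with Ptn as the shRNA target. Genes like Trp53, Mdm2 and Cdkn1a were sought among those with a mean log2 level of at least 3 in the cells. Positions and exon lengths came from GENCODE M21 on GRCm38. Alternatives were other filters, a pseudocount of 1, other scalings, voom weights, eBayes that was not robust, all 24 samples in 1 fit, a replicate block and leaving out each sample. Descriptions used Python 3.11.15, numpy 2.4.6, pandas 2.3.3, scipy 1.17.1 and matplotlib 3.10.9.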

Additional observations from a re-analysis of the deposited data

Results flagged for a closer look

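The difference between shPTN and control cells differed between the lines, by the interaction term of limma, for Gadd45a and Ccng1. For Gadd45a the effect in E0771-LG minus that in E0771 was 1.78 on the log2 scale (SE 0.39, adjusted p = 0.00361), with every shPTN sample below the controls in E0771 and above them in E0771-LG. For Ccng1 the difference was −0.35 (SE 0.13, adjusted p = 0.0471), with every shPTN sample below the controls in E0771-LG and overlapping groups in E0771. Ccng1 passed in 8 of 21 alternatives, with adjusted p between 0.0280 and 0.600, against 21 of 21 for Gadd45a.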

How the results depend on the processing

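Of 850 single-gene values under alternatives, 742 kept their direction and side of the threshold, 49 lost and 16 gained a call, and 43 changed sign. In 1 fit of all 24 samples, the count of called genes was 6 for 4T1, 5 for MMTV-PyMT tumors, 999 for E0771 and 2382 for the interaction, and members called 0 in E0771, 1 in E0771-LG and 1 for the interaction. Quantile normalization called 3 members in E0771-LG, with Mdm2 added (adjusted p = 0.0181), and 1 for the interaction, and voom weights 1 for the interaction, where median-of-ratios scaling and the replicate block each called 3, with Trp53 added (adjusted p = 0.0456 and 0.0442). Same-numbered samples did not deviate together in every pair (correlations from −0.327 to 0.436). In E0771-LG, replicates 1 and 2 were most like the same number (0.158 and 0.237), and replicate 3 was not (−0.117). These values do not settle whether the numbers pair the samples. The replicate block called 7 members between the control lines in place of 4, and 5993 of all genes in place of 5676. The members gained were Cdkn1a (adjusted p = 0.0021), which was higher, and Gadd45a and Pmaip1, which were lower. In E0771-LG the block called 4 members in place of 5, with Ccng1 lost (adjusted p = 0.0562). The cause of these changes was not tested.

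Under quantile normalization Cdkn1a (0.0122) and Bax (0.00566) changed sign in E0771, and Phlda3 between the control lines (0.0755, and 0.00953 with median-of-ratios scaling). For Trp53inp1 the interaction was −0.18 under quantile normalization, −0.000927 with median-of-ratios scaling and −0.00495 with voom weights.

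Leaving out each sample in turn gave 0 to 2 members in E0771, 1 to 4 in E0771-LG and 1 to 3 for the interaction, and 1164 to 2139 genes in E0771 and 3206 to 5113 in E0771-LG. Log2 fold changes that changed sign ranged in 4T1 from −0.35 to 0.0011 (Trp53inp1), −0.10 to 0.10 (Mdm2) and −0.36 to 0.18 (Gadd45a). In MMTV-PyMT they ranged from −1.43 to 0.66 (Cdkn1a), −0.63 to 0.0489 (Gadd45a), −0.64 to 0.58 (Pmaip1), −0.49 to 0.47 (Ccng1), −0.75 to 0.64 (Phlda3), −0.45 to 0.11 (Trp53inp1), −0.0135 to 0.31 (Mdm2) and −0.0640 to 0.81 (Bax). In E0771 they ranged from −0.42 to 0.26 (Cdkn1a), −0.18 to 0.17 (Bax), −0.00051 to 0.30 (Phlda3) and −0.0032 to 0.12 (Trp53), and in E0771-LG from −0.29 to 0.22 (Pmaip1). Between control lines Trp53inp1 ranged from −0.43 to 0.41, and for the interaction Trp53inp1 from −0.29 to 0.55 and Bax from −0.00899 to 0.34. None of these was called as deposited. The depth of the 4T1 samples is unknown, which limits what can be said of low genes there.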
